A study of Mus musculus with 4 samples.

Results

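Immature enterocytes, absorptive cells that carry the fatty acid carrier Fabp1 but little of the retinol carrier Rbp2, were described in the small-intestinal epithelium of mice on a high-fat diet. They numbered 2024 of the 25788 barcodes that met the quality limits, out of 44277 barcodes in all. A barcode marks the transcripts of a single droplet, and each captured transcript is counted as a unique molecular identifier (UMI). A barcode was selected if it held at least 500 UMIs and 250 genes with at most 25% mitochondrial UMIs, at least 0.5% of its UMIs from Fabp1 and below 1% from Rbp2. It also had to hold below 0.05% of the stem cell gene Olfm4, below 0.2% of the goblet gene Muc2, below 5% of alpha-defensin genes, below 5 UMIs of the division genes Mki67 and Top2a together, below 5 UMIs of the endocrine genes Chga and Chgb together, and no UMI of the leukocyte gene Ptprc or of the T cell genes Cd3d, Cd3e and Cd3g. The barcodes were thus chosen by their measured counts of these genes, and because the classes they are set beside were chosen in the same matrix, every value below is a description and none was tested.

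The study gave male C57BL/6J mice high-fat food (HFD) for 7 weeks from 8 weeks of age, together with l-NAME, which blocks the enzymes that make nitric oxide. The IPA group received indolepropionic acid, a tryptophan product of gut bacteria, at 562.5 mg per kg of that food, and the control group received HFD and l-NAME without it. The labels name 2 samples in each group, every sample a pool of 2 mice of 15 weeks. Jejunum and ileum were collected together without Peyer's patches, so intestinal region and cell stage are mixed within each library, and DAPI-negative cells were sorted before the droplet assay. The 4 libraries stand in 1 matrix and are told apart by a number on the barcode. No source used here ties a number to a diet, so no diet comparison was made and each library's value stands alone, always in the order 1 to 4.

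Enterocytes arise from stem cells at the base of the crypt, whose daughters divide several times, leave the cell cycle near the crypt mouth and climb the villus within days. On the way they replace a programme of ribosome building and DNA replication by one of brush border digestion, nutrient transport and assembly of fat particles. The villus is zoned, so that cells of its base, middle and tip differ in antimicrobial, absorptive and lipoprotein genes. Fabp1 and Rbp2 encode soluble carriers of fatty acids and retinol, and Olfm4 marks the stem cell zone.

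Immature enterocytes were sequenced deeply, with a median of 27278 UMIs and 4648 genes per barcode and 8.99% mitochondrial UMIs. The median was 32147, 25910, 31403 and 25178.5 UMIs in libraries 1 to 4, and the UMIs summed over the class numbered 9401282, 22991090, 10379001 and 13011085. The classes set beside them were crypt cells (Olfm4 at least 0.05%, 554 barcodes, median 21448 UMIs), cycling cells (at least 5 UMIs of Mki67 and Top2a, 1323 barcodes, 38042 UMIs) and enterocytes with at least 1% Rbp2. The last were split at 1% Apoa4, the apolipoprotein of the upper villus, into lower-Apoa4 enterocytes (5986 barcodes, 31871.5 UMIs) and higher-Apoa4 enterocytes (8605 barcodes, 24977 UMIs). Barcode sequences that occur in more than 1 library numbered 75 among passing barcodes and 0 among immature enterocytes. Levels are UMIs of a gene per 1e+06 UMIs of a class, written CPM, with exact Poisson intervals that cover counting error only.

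The selected barcodes were not uniform, and some went against the name. Fabp6, the bile acid carrier of ileal enterocytes, made up at least 0.1% of UMIs in 125 of the barcodes with at least 5000 UMIs, 9, 35, 40 and 41 in libraries 1 to 4. Together these barcodes held 15619 CPM of Fabp6, 60350.2 CPM of Fabp2, 18983 CPM of Apoa1 and 239 CPM of the vitamin B12 receptor Cubn, but 201 CPM of the label marker Dmbt1 and 515 CPM of Pycard. In the 1327 barcodes that met none of the limits given here and in the next paragraph, the same genes were at 24.5, 9463, 3849, 10.97, 883 and 1753 CPM. The Fabp6-rich barcodes thus carried the genes of ileal enterocytes of a later stage, and they were 3.05%, 3.93%, 11.4% and 8.40% of the class. A further 252 barcodes (7.80%, 16.05%, 15.1% and 6.76%) held under 5000 UMIs, with a median of 1183.5, and had 21062 CPM of the nuclear transcript Malat1, 2051 CPM of the antibody gene Igkc and 6454 CPM of Apoa4. Another 6 barcodes held at least 10 UMIs of 6 tuft cell genes, among them Dclk1 at 1176 CPM. Without these 3 sets 1641 barcodes remained, 81.1% of the class, and values for them are given beside several results below.

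Of the barcodes kept, 309 (48, 114, 54 and 93) held at least 10 UMIs over 7 genes of cell division while holding fewer than 5 UMIs of Mki67 and Top2a. They had 128 CPM of cyclin B2 (Ccnb2), 126 CPM of Birc5 and 176 CPM of the tubulin regulator Stmn1, against 4.96, 6.94 and 22.4 CPM in the 1327 others. Their Dmbt1 (1406 CPM) and Rbp7 (206 CPM) were also higher than in those others (883 and 79.7 CPM), and their Apoa1 was lower (1059 against 3849 CPM). These limits were set on the same genes and after the values were seen. Finally, 5 barcodes held transcripts known from the epithelium over lymphoid follicles, with Ccl20 at 1287 CPM and Spib at 481 CPM.

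**Figure D1:**
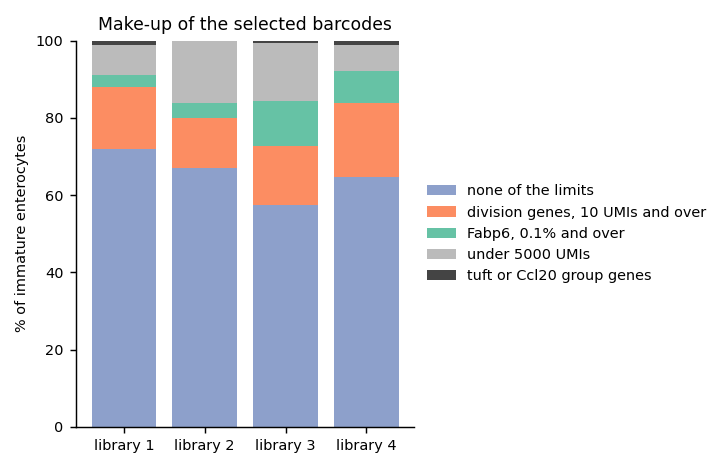
Make-up of the immature enterocytes of each library, in percent of the class (vertical axis), split by the limits described in the text. Barcodes rich in Fabp6 made up 3.05%, 3.93%, 11.4% and 8.40% in libraries 1 to 4, and those under 5000 UMIs 7.80%, 16.05%, 15.1% and 6.76%.

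Most genes examined at the Rbp2 limit were alike on both sides, and Fabp6 was not. The 199 barcodes just inside the Rbp2 limit, at 0.9 to 1% of UMIs, had 21533 CPM of Fabp2, 8505 of Apoa1, 501 of Dmbt1 and 1227 of Rpl12. The 179 barcodes just outside it, at 1 to 1.1%, had 21350.1, 9045, 422 and 1122 CPM of the same genes. Fabp6 was at 1300.4 CPM inside that limit and 581 CPM outside it. At the Fabp1 limit, the 74 barcodes inside (0.5 to 0.55%) had 4336 CPM of Fabp6, and the 84 outside (0.45 to 0.5%) had 9641 CPM. The 1464 barcodes with still less Fabp1 that met every other criterion held 14678 CPM of Fabp6 when summed. How many of them were rich in Fabp6 was not counted. Summed, they also held 1396 CPM of Rpl12 and 94.6 CPM of Stmn1, against 476 and 14.7 CPM in the Fabp6-rich members, so they were not Fabp6-rich cells alone. Dropping the leukocyte criteria alone would have added 37, 7, 154 and 9 barcodes in libraries 1 to 4, most of them in library 3, in which 350 were selected.

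Immature enterocytes made up 4.78% of passing barcodes in library 1 (295 of 6174, exact Clopper-Pearson 95% interval 4.26 to 5.34), 12.5% of those of library 2 (891 of 7122, 11.8 to 13.3), 5.55% of library 3 (350 of 6307, 5.00 to 6.14) and 7.89% of library 4 (488 of 6185, 7.23 to 8.59). Library 2 therefore held the largest share of them, beyond counting error. Library 3 had many immune barcodes, and of non-immune barcodes the shares were 5.34%, 12.6%, 8.73% and 7.92%, which moved library 3 from below library 4 to above it with overlapping intervals. Without the Fabp6-rich, shallow and tuft-gene barcodes the shares of passing barcodes were 4.21%, 10.01%, 4.07% and 6.65%. Library 2 stayed highest under both counts. Of passing barcodes, library 2 also held the largest share of crypt cells (3.26%), cycling cells (7.95%) and lower-Apoa4 enterocytes (38.99%). It held the smallest share of higher-Apoa4 enterocytes (18.04%). Of non-immune barcodes, library 3 held a larger share of crypt cells than library 2 (3.57% against 3.27%). The high share of library 2 was thus not particular to immature enterocytes.

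Fabp1 and Rbp2 chose the barcodes, and their levels are given as a description. Fabp1 was at 19399, 17263, 17606 and 16964 CPM in immature enterocytes of libraries 1 to 4, against 1115, 1817, 1808 and 1582 CPM in crypt cells and 47411, 42245, 41708 and 45125 CPM in lower-Apoa4 enterocytes. Rbp2 was at 5374, 5006, 5580.5 and 5323 CPM, against 599.9, 697, 666 and 472 CPM in crypt cells and 26958, 26273, 25495 and 27321 CPM in lower-Apoa4 enterocytes. The limits on Rbp2 keep its values in immature enterocytes below those of the villus classes by construction, so the lack of overlap in Rbp2 is no result. Crypt cells were also held below 1% Rbp2, so their Rbp2 was bounded by choice as well.

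The markers that gave the class its name were higher in immature enterocytes than in villus cells, apart from Fabp1. Rbp7, another retinol carrier, was at 125, 88.9, 94.999 and 106 CPM in immature enterocytes, against 15.2, 11.5, 18.8 and 15.2 CPM in lower-Apoa4 and 1.16, 1.49, 1.18 and 1.31 CPM in higher-Apoa4 enterocytes. Dmbt1, a secreted scavenger protein that binds bacteria, was at 1152, 1077, 786 and 665 CPM in immature enterocytes, against 187, 157, 129.7 and 98.7 CPM in lower-Apoa4 and 19.9, 23.8, 9.68 and 8.71 CPM in higher-Apoa4 enterocytes. Gsdmc4, a gasdermin whose relatives form membrane pores, was at 31.8, 47.1, 30.6 and 52.95 CPM in immature enterocytes, against 2.76, 4.28, 6.97 and 7.20 CPM in lower-Apoa4 and 0.337, 0.632, 0.403 and 0.758 CPM in higher-Apoa4 enterocytes. All 3 were higher in every library than in either villus class, and so was Pycard, the inflammasome adaptor, at 1699.6, 1840.3, 1464 and 1773 CPM in immature enterocytes against 613, 632, 714 and 771 CPM in lower-Apoa4 enterocytes.

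Set beside cycling cells, these markers did not stand out. Cycling cells held 116, 136, 113 and 157 CPM of Rbp7, 1459, 1424, 995 and 1088 CPM of Dmbt1 and 22.97, 43.2, 31.9 and 31.9 CPM of Gsdmc4, so that immature enterocytes had less Dmbt1 than cycling cells in all 4 libraries (log2 ratios -0.34, -0.40, -0.34 and -0.71). None of the 4 markers other than Fabp1, which the rule selected, was past 2-fold higher than in cycling cells in all 4 libraries. Crypt cells held less of them, with 23.9, 30.02, 24.1 and 34.4 CPM of Rbp7, 618, 574, 372 and 464 CPM of Dmbt1 and 6.49, 6.22, 4.28 and 9.49 CPM of Gsdmc4, the last resting on few counts (exact Poisson 95% interval 3.71 to 10.5 CPM in library 1). Pycard was at 795, 951, 772 and 982 CPM in crypt cells. Against crypt cells 3 of the 5 markers were past 2-fold higher in all 4 libraries, namely Rbp7, Gsdmc4 and the selected Fabp1, and Dmbt1 and Pycard were not. The label markers that the rule did not use were thus higher than in villus cells and in part higher than in crypt cells. They did not set the class apart from cells still dividing. These markers were named with earlier results of these data known, so their levels describe the class and are no independent support for its name.

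**Figure D2:**
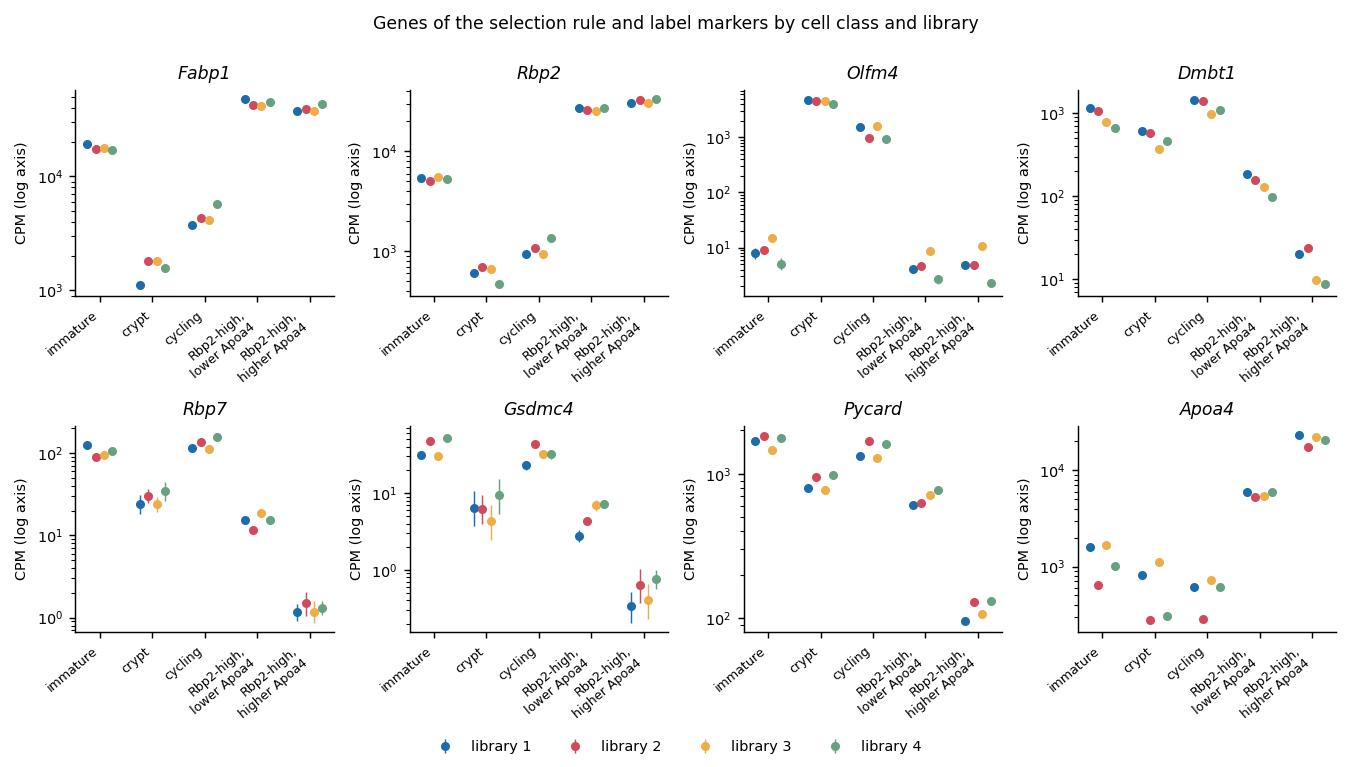
CPM (log axis) of 8 genes in 5 cell classes, a point for each library with its exact Poisson 95% interval. Fabp1 and Rbp2, which chose the classes, lie between crypt and villus levels in immature enterocytes, while Rbp7, Dmbt1, Gsdmc4 and Pycard are as high or nearly as high in cycling cells and lower in both villus classes.

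The 250 bases upstream of the annotated starts of Fabp1 and Rbp2, the pair that defined the class, and of Rbp7, which was lower in both villus classes, are shown to let their letters be compared (RefSeq, GRCm38.p6, 5′ to 3′ on the strand of the gene). Capitals mark matches on either strand to motifs of factor families known in enterocytes: CAAAGTNCA for HNF4, TTTATNG for CDX and GATAAG for GATA, besides the longer HNF1 motif.
Fabp1 (chr6:71199629-71199878, strand +): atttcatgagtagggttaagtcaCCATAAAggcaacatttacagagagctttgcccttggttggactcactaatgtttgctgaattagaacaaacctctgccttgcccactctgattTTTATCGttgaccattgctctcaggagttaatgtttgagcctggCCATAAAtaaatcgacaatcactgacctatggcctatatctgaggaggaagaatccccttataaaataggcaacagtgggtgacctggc
Rbp2 (chr9:98490287-98490536, strand +): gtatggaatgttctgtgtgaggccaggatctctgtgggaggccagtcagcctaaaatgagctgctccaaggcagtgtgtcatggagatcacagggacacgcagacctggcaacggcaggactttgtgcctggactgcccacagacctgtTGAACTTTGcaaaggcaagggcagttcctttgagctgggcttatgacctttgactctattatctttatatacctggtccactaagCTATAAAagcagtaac
Rbp7 (chr4:149454969-149455218, strand −): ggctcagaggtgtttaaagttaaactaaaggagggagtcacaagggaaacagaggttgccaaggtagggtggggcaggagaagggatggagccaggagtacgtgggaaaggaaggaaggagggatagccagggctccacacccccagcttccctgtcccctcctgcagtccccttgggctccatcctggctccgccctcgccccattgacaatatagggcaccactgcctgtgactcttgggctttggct
The HNF4 motif was found once in these 3 windows, in Rbp2 on the reverse strand starting 101 bases before the start, and 1.19% of 32851 promoter windows of that length hold it. The CDX motif was found at 3 places in Fabp1 and at 1 in Rbp2, where its letters overlap a TATA-like stretch 16 bases before the start, and 9.81% of windows hold it. The GATA motif (6.55% of windows) and the HNF1 motif (0.0944%) had no match in the 3 windows, and the Rbp7 window held none of the 4. A match describes letters and shows no binding. Pycard is also in the table but is not shown, and Dmbt1 and Gsdmc4 had no entry in it.

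Genes were counted as higher or lower than in another class where their level was past 2-fold, in the same direction, in all 4 libraries, on the scale of log2 of CPM plus 1. Genes at 10 CPM or more in either class were measured. Against crypt cells 8242 genes were measured, of which 756 (9.17%) were higher in immature enterocytes and 1047 (12.7%) lower, with a median log2 ratio of -0.13 over all of them. Against cycling cells 491 of 8158 (6.02%) were higher and 1022 (12.5%) lower. Against lower-Apoa4 enterocytes 357 of 7108 (5.02%) were higher and 161 (2.27%) lower, and against higher-Apoa4 enterocytes 1276 of 7300 (17.5%) were higher and 506 (6.93%) lower. The median log2 ratio over all measured genes was -0.19 against cycling cells, 0.24 against lower-Apoa4 and 0.27 against higher-Apoa4 enterocytes. By these counts immature enterocytes differed from lower-Apoa4 enterocytes in the fewest genes. Without the Fabp6-rich, shallow and tuft-gene barcodes the counts against these 4 classes were 708 and 1000, 437 and 958, 456 and 230, and 1351 and 598.

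Genes of the stem cell programme were far lower in immature enterocytes than in crypt cells. All 17 measured genes of the crypt stem cell list were lower, beside 12.7% of all measured genes. The list medians were -4.38, -4.04, -3.95 and -3.97. Olfm4 is on this list, and its limit parts immature enterocytes from crypt cells. A lower level of genes that go with Olfm4 is thus in part set by the choice of barcodes. How large that part is was not tested. Lgr5, the receptor that marks dividing stem cells, was at 0.106, 0.174, 0.0963 and 0.0769 CPM in immature enterocytes, against 88.4, 50.03, 77.9 and 52.8 CPM in crypt cells. Ascl2, the transcription factor of the stem cell state, was at 0.213, 0.174, 0.385 and 0 CPM in immature enterocytes, where library 4 had no UMI of it, against 70.2, 66.8, 66.7 and 111 CPM in crypt cells. Both were close to 0 in immature enterocytes of every library. Sox9, a factor of the crypt base and of secretory cells, was at 8.93, 10.7, 10.1 and 10.1 CPM in immature enterocytes, against 169.6, 161, 139.8 and 135 CPM in crypt cells. Olfm4, used by the rule, was at 7.87, 9.13, 15.2 and 4.996 CPM, against 4822, 4566, 4470.2 and 3954 CPM in crypt cells.

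Against lower-Apoa4 enterocytes 5 genes of the stem cell list were measured, and 2 were higher in immature enterocytes, beside 5.02% of all measured genes. Prom1, a membrane protein of progenitors, was at 25.1, 25.7, 20.9 and 22.6 CPM in immature enterocytes, against 119.7, 109.8, 85.9 and 104 CPM in crypt cells, but only 6.89, 6.50, 6.04 and 5.21 CPM in lower-Apoa4 enterocytes. Hes1, a Notch target that favours the absorptive fate and is no gene of that list, was at 77.6, 88.6, 72.1 and 61.8 CPM in immature enterocytes, 172, 147, 169 and 155 CPM in crypt cells and 28.4, 36.3, 37.9 and 30.1 CPM in lower-Apoa4 enterocytes. Among the genes lowest in immature enterocytes against crypt cells were also Sox4, a factor of crypt progenitors (log2 ratios -5.51, -5.84, -5.49 and -5.60), Igfbp4, which binds insulin-like growth factors (-6.36, -5.53, -5.39 and -6.03), and Slc12a2, a chloride transporter of crypts (-6.14, -5.98, -5.37 and -5.95).

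Cell division genes lay below the levels of cycling cells and above those of the villus. Of 28 measured genes of the cell cycle list, 28 were lower in immature enterocytes than in cycling cells, 23 of 28 lower than in crypt cells and 12 of 16 higher than in lower-Apoa4 enterocytes. Over all measured genes these shares were 12.5%, 12.7% and 5.02%. Mki67 and Top2a were part of the rule and of this list, and their limit parts immature enterocytes from cycling cells. A lower level of genes that go with them is thus in part set by the choice of barcodes. The size of that part was not tested. Stmn1 was at 49.9, 46.7, 50.6 and 66.02 CPM in immature enterocytes, against 680.3, 648, 763 and 711 CPM in cycling cells and 4.75, 6.91, 7.80 and 6.57 CPM in lower-Apoa4 enterocytes. The 309 barcodes rich in division genes held 1914 UMIs of Stmn1 (176 CPM) and the 1327 others 913 UMIs (22.4 CPM), so most of the Stmn1 of the class came from those 309 barcodes. For Ccnb2 these numbers were 1395 and 202 UMIs. Both genes are among the 7 that chose the 309 barcodes, so their concentration there follows from that choice and is no result. Ccnd2, a cyclin of the step into DNA replication, was at 142, 169, 142 and 176 CPM in immature enterocytes, against 383, 422, 411 and 517 CPM in crypt cells and 27.5, 29.9, 22.3 and 33.7 CPM in lower-Apoa4 enterocytes. The inhibitor Cdkn2b, which blocks that same step, was at 161, 194, 161 and 209 CPM in immature enterocytes, against 1.62, 8.92, 7.23 and 1.78 CPM in crypt cells and 29.8, 61.4, 31.2 and 46.02 CPM in cycling cells. It was the gene furthest above crypt cells by the smallest of its 4 log2 ratios (5.95, 4.30, 4.30 and 6.24).

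Genes that build ribosomes stood midway. Of 12 genes of the ribosome synthesis list, 10 were lower in immature enterocytes than in crypt cells (list medians -2.07, -1.96, -1.96 and -1.997) and 11 were higher than in lower-Apoa4 enterocytes (1.80, 1.82, 1.42 and 1.61). Those shares were 12.7% and 5.02% over all measured genes. Npm1, which helps assemble ribosomes in the nucleolus, was at 335, 414, 426 and 369.7 CPM in immature enterocytes, against 1791, 1959, 1942 and 1793 CPM in crypt cells and 93.7, 112, 148 and 119 CPM in lower-Apoa4 enterocytes. Ncl, or nucleolin, was at 153, 156, 196 and 184 CPM in immature enterocytes, against 666, 666, 759 and 747 CPM in crypt cells and 54.3, 50.9, 83.5 and 68.9 CPM in lower-Apoa4 enterocytes. The ranges of the 3 classes did not overlap for either gene.

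The ribosomal proteins themselves stood closer to crypt than to lower-Apoa4 levels on the log2 scale. Their transcripts summed to 15.6%, 16.2%, 16.03% and 16.2% of UMIs in immature enterocytes of libraries 1 to 4, against 27.9%, 27.7%, 28.1% and 28.1% in crypt cells, 6.38%, 6.54%, 8.21% and 7.79% in lower-Apoa4 and 1.87%, 2.18%, 2.27% and 2.45% in higher-Apoa4 enterocytes. Only 1 of 82 was lower than in crypt cells, with list medians of -0.84, -0.78, -0.80 and -0.80. Against lower-Apoa4 enterocytes 34 of 82 were higher, with list medians of 1.30, 1.28, 0.96 and 1.05, and against higher-Apoa4 enterocytes 81 of 82. In the same order, the shares over all measured genes were 12.7%, 5.02% and 17.5%. Rpl12, a protein of the large subunit, was at 1560.2, 1782, 1655 and 1743 CPM in immature enterocytes, against 3678, 3769.6, 3631 and 3668 CPM in crypt cells, 444, 511, 642 and 621 CPM in lower-Apoa4 and 71.4, 105, 101 and 115 CPM in higher-Apoa4 enterocytes.

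**Figure D3:**
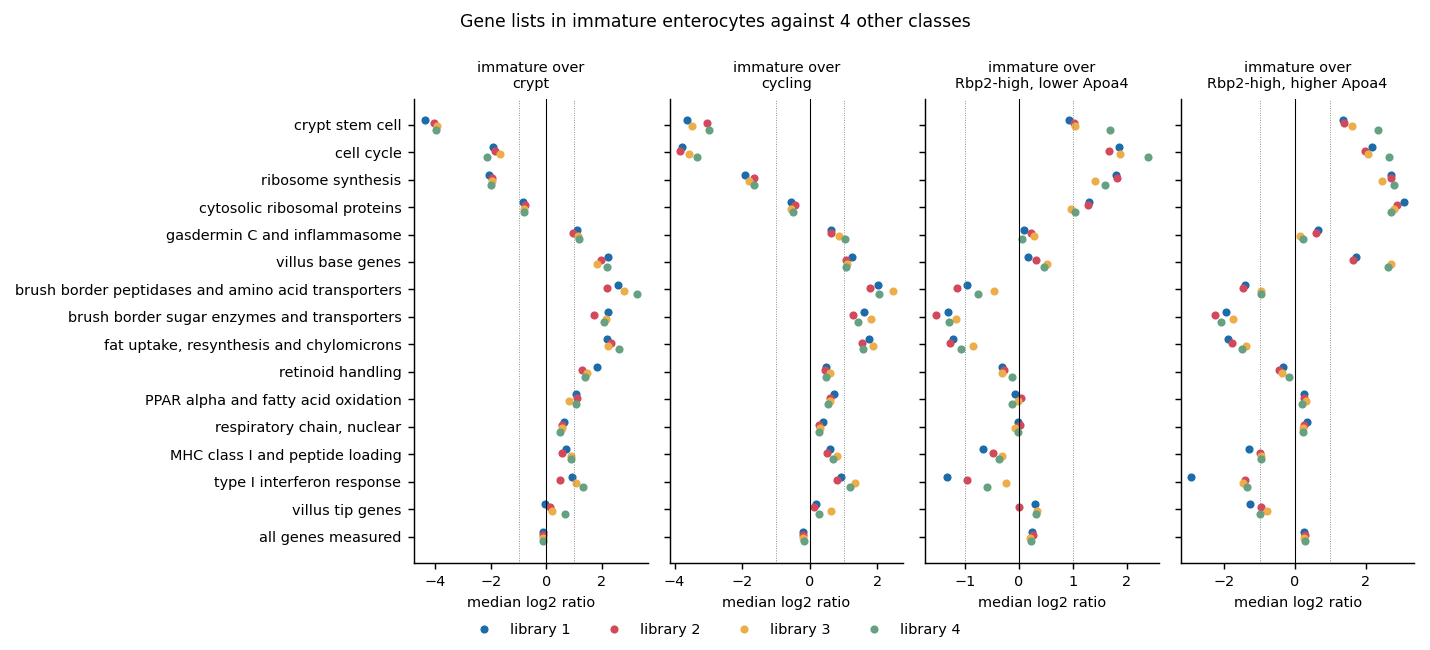
Median log2 ratio of immature enterocytes to 4 other classes (panels) for 15 gene lists and for all genes measured, a point for each library, with dotted lines at 2-fold. Stem cell, division and ribosome lists lie left of 0 against crypt and cycling cells and right of 0 against both villus classes, and brush border and fat lists lie on the opposite sides.

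Stepwise differences of this kind were counted in both directions. Of 8742 genes at 10 CPM or more in any of the 5 classes, 298 (3.41%) were lower in immature enterocytes than in crypt cells and higher than in both villus classes. They included 10 of 12 genes of ribosome synthesis and 13 of 28 of the cell cycle. The mirror image, higher than in crypt cells and lower than in both villus classes, held for 87 genes (0.995%), among them 7 of 10 brush border sugar genes and 5 of 21 fat handling genes. Without the Fabp6-rich, shallow and tuft-gene barcodes these counts were 313 and 114, of which 274 and 78 were shared with the full class.

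Genes of protein digestion were above crypt levels, and their list medians were below lower-Apoa4 levels in every library. All 19 genes of the list of brush border peptidases and amino acid transporters were higher in immature enterocytes than in crypt cells (list medians 2.59, 2.19, 2.80 and 3.27), and 2 of 19 were lower than in lower-Apoa4 enterocytes (-0.96, -1.14, -0.47 and -0.76). Those shares were 9.17% and 2.27% over all measured genes. The list summed to 0.291%, 0.290%, 0.385% and 0.367% of UMIs, against 0.639%, 0.688%, 0.598% and 0.653% in lower-Apoa4 enterocytes. Without the Fabp6-rich, shallow and tuft-gene barcodes it summed to 0.268%, 0.255%, 0.274% and 0.298%, further below that class in every library. Anpep, which trims peptides from their amino end, was at 652, 586, 808 and 742 CPM in immature enterocytes, against 70.6, 67.1, 48.2 and 34.99 CPM in crypt cells and 1622, 1582, 1297 and 1439.96 CPM in lower-Apoa4 enterocytes. Enpep, a related peptidase, was at 289.5, 302, 329 and 301 CPM in immature enterocytes, against 18.3, 27.04, 29.2 and 16.6 CPM in crypt cells and 471, 532, 456 and 431 CPM in lower-Apoa4 enterocytes. Both lay between the classes in every library. Ace, the angiotensin-converting peptidase, was further from its villus level, at 62.1, 60.5, 110.1 and 79.01 CPM in immature enterocytes, against 290.3, 328, 316 and 312 CPM in lower-Apoa4 and 719.5, 771, 901 and 736 CPM in higher-Apoa4 enterocytes. Slc15a1, the transporter of small peptides, was at 45.3, 34.6, 90.7 and 58.7 CPM in immature enterocytes and 37.9, 23.5, 54.4 and 35.8 CPM without the Fabp6-rich, shallow and tuft-gene barcodes, against 118, 131, 124 and 118 CPM in lower-Apoa4 enterocytes.

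Most genes of sugar handling were above crypt levels and below villus levels. Of 10 genes for brush border sugar enzymes and transporters, 9 were higher in immature enterocytes than in crypt cells, and 7 were lower than in lower-Apoa4 enterocytes (list medians -1.31, -1.54, -1.17 and -1.30). Those shares were 9.17% and 2.27% over all measured genes. Sis, the enzyme that splits sucrose and isomaltose, was at 1359, 917, 1119.95 and 896 CPM in immature enterocytes, against 67.3, 104, 86.8 and 57.5 CPM in crypt cells and 3111, 2632, 2620.1 and 2171 CPM in lower-Apoa4 enterocytes. Slc2a2, the glucose exit transporter of the basolateral membrane, was at 67.01, 23.7, 35.4 and 34.9 CPM in immature enterocytes, against 374, 258, 251 and 271 CPM in lower-Apoa4 enterocytes. Both were below the villus class in every library. Slc5a1, which takes up glucose with sodium, was at 418, 275, 387 and 298 CPM in immature enterocytes, against 1130.02, 963, 856 and 723 CPM in lower-Apoa4 enterocytes. Lct, the lactase, was at 78.4, 45.5, 117 and 112 CPM in immature enterocytes, against 384, 338, 406 and 445 CPM in lower-Apoa4 and 883, 823, 969 and 932 CPM in higher-Apoa4 enterocytes. Library 2 was the lowest of the 4 for Slc2a2, Slc5a1 and Lct, and the immature enterocytes lay below the villus classes in every library.

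Fat handling was split. Of 20 measured genes for fat uptake, resynthesis and chylomicrons, a list that contains Fabp1, 17 were higher in immature enterocytes than in crypt cells and 8 of 20 were lower than in lower-Apoa4 enterocytes. The shares over all measured genes were 9.17% and 2.27%. Mogat2, the acyltransferase that starts triglyceride resynthesis, was at 235, 247, 248 and 272 CPM in immature enterocytes, against 12.2, 24.3, 19.8 and 12.5 CPM in crypt cells and 539, 562, 479 and 554 CPM in lower-Apoa4 enterocytes. Mttp, which loads lipid onto apolipoprotein B, was at 758, 636, 761 and 658 CPM in immature enterocytes, against 80.3, 97.9, 91.04 and 68.8 CPM in crypt cells and 1781, 1541, 1707 and 1608 CPM in lower-Apoa4 enterocytes. Plin2, a coat protein of lipid droplets, was at 243, 264, 278 and 262 CPM in immature enterocytes, against 286, 284, 306 and 379.5 CPM in lower-Apoa4 and 199, 203, 240.2 and 276 CPM in higher-Apoa4 enterocytes, and so had no such gap.

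The secreted apolipoproteins Apoc2, Apoa4 and Apoa1 were below their villus level to different extents. Apoc2, the cofactor of lipoprotein lipase, was at 584, 308, 544 and 460.1 CPM in immature enterocytes, against 346, 205, 397 and 217 CPM in crypt cells, 6144, 5241, 4745 and 5408 CPM in lower-Apoa4 and 16453, 14601, 15262 and 16342 CPM in higher-Apoa4 enterocytes. It was the lowest gene against both villus classes, with log2 ratios of -3.39, -4.09, -3.12 and -3.55 to the lower-Apoa4 class. Apoa4, which split the villus classes but not the immature ones, was at 1609.99, 642, 1679 and 1023 CPM in immature enterocytes, against 5906, 5258, 5379 and 5892 CPM in lower-Apoa4 enterocytes. Apoa1 was at 3183, 3239, 5829 and 5738 CPM in immature enterocytes, against 10522, 12654, 10459.7 and 12506 CPM in lower-Apoa4 enterocytes, and at 2896, 2711, 3799 and 4188 CPM without the Fabp6-rich, shallow and tuft-gene barcodes. With all barcodes its log2 ratios to the lower-Apoa4 class were -1.72, -1.97, -0.84 and -1.12, beside medians of -1.21, -1.28, -0.85 and -1.07 for the whole list of fat handling. The higher Apoa1 of libraries 3 and 4 was therefore smaller without these barcodes.

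Other genes far below the villus level were Leap2, a peptide that blocks the ghrelin receptor, at 101, 87.3, 106 and 116 CPM in immature enterocytes, against 978, 825, 731 and 1191 CPM in lower-Apoa4 enterocytes, and Cyp2b10, a drug-metabolising enzyme, at 7.55, 5.61, 16.4 and 16.5 CPM, against 101, 96.8, 108 and 135 CPM. Another xenobiotic gene, Gsta1, a glutathione transferase, was already at 554, 398, 382 and 439 CPM in immature enterocytes, against 8.52, 23.5, 18.5 and 13.6 CPM in crypt cells, 1437, 1093, 1513 and 1437 CPM in lower-Apoa4 and 477, 420.4, 674 and 789.99 CPM in higher-Apoa4 enterocytes. Reads of Gsta1 cannot be told apart from those of its near copies with certainty, so its level is uncertain. Of 19 measured genes of the list of the xenobiotic receptors AhR and PXR with their targets, 12 were higher in immature enterocytes than in crypt cells. Against lower-Apoa4 enterocytes 5 of 20 were lower. Over all measured genes these shares were 9.17% and 2.27%. Indolepropionic acid is known to act on such receptors, but which libraries received it is not known here. Aldh1a1, which makes retinoic acid, was at 187, 142, 299 and 224 CPM in immature enterocytes, against 10.95, 16.8, 21.7 and 14.2 CPM in crypt cells and 499, 428, 807 and 663 CPM in lower-Apoa4 enterocytes.

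Genes of energy metabolism were close to their level in lower-Apoa4 enterocytes. None of the 25 nuclear genes of the respiratory chain was past 2-fold from lower-Apoa4 enterocytes, with list medians of -0.02, 0.02, -0.07 and -0.01, and 1 of 25 was higher than in crypt cells. Of 20 genes of fatty acid oxidation, 8 were higher in immature enterocytes than in crypt cells, with list medians of 1.07, 1.12, 0.81 and 1.08, and 1 of 20 was lower than in lower-Apoa4 enterocytes. Of all measured genes 9.17% were higher than in crypt cells, and 5.02% were higher and 2.27% lower than in lower-Apoa4 enterocytes. The small counts against lower-Apoa4 enterocytes thus lie near the shares over all genes.

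As a list, enterocyte transcription factors stood near their lower-Apoa4 level, while single factors lay below it. Of 23 measured, 7 were higher and 1 lower in immature enterocytes than in crypt cells, beside 9.17% and 12.7% of all measured genes. Of 21 measured against lower-Apoa4 enterocytes, 0 were higher and 1 lower, beside 5.02% and 2.27% of all measured genes. The list medians of that comparison were 0.17, 0.14, 0.05 and 0.15. Hnf4g, a nuclear receptor of enterocytes, was at 132, 100.2, 135 and 93.6 CPM in immature enterocytes, against 36.5, 34.1, 38.6 and 24.3 CPM in crypt cells and 117, 90.96, 143 and 86.9 CPM in lower-Apoa4 enterocytes. Its paralog Hnf4a differed little between classes, at 143, 126, 154 and 138 CPM in immature enterocytes and 165, 136, 175 and 144 CPM in crypt cells. Hnf4g thus lay near the villus level, above crypt cells in every library. Creb3l3, a factor of lipid metabolism, was at 409, 374, 477 and 427 CPM in immature enterocytes, against 47.9, 44.3, 75.5 and 30.2 CPM in crypt cells and 472, 462, 579 and 554 CPM in lower-Apoa4 enterocytes. Maf, a leucine zipper factor, was below its villus level, at 158, 147, 186 and 178 CPM in immature enterocytes, against 12.6, 16.8, 14.2 and 10.7 CPM in crypt cells and 265, 243, 258 and 230.4 CPM in lower-Apoa4 enterocytes. Maf was thus above crypt cells and below the lower-Apoa4 class in every library, the latter by less than 2-fold. Klf4, a factor of differentiated epithelium, was at 34.9, 23.7, 60.4 and 48.4 CPM in immature enterocytes and 26.7, 16.96, 39.5 and 27.9 CPM without the Fabp6-rich, shallow and tuft-gene barcodes, against 315, 252, 252 and 255 CPM in higher-Apoa4 enterocytes.

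Few genes peaked in the class. None of the 8742 genes was past 2-fold higher than in all 4 other classes in every library. Leaving cycling cells aside, 9 genes (0.103%) were higher than in crypt cells and than in both villus classes, and 8 of them were among the 9 found without the Fabp6-rich, shallow and tuft-gene barcodes. They were Rbp7, Gsdmc4, Gsdmc2, Vstm5, Hsd11b2, Alppl2, Phlda2, 1810065E05Rik and 4930581F22Rik, named because they met this rule. Rbp7 and Gsdmc4 are also label markers, named with earlier results of these data known. Hsd11b2, which inactivates glucocorticoids, was at 24.997, 25.7, 23.03 and 28.1 CPM in immature enterocytes, against 10.5, 9.19, 10.7 and 11.9 CPM in crypt cells and 3.65, 3.99, 5.12 and 6.996 CPM in lower-Apoa4 enterocytes, but 23.5, 22.03, 23.9 and 30.8 CPM in cycling cells. Vstm5, a membrane protein, was at 27.9, 27.01, 24.6 and 26.1 CPM in immature enterocytes, against 8.52, 9.74, 10.4 and 4.74 CPM in crypt cells, 14.3, 22.6, 14.5 and 17.1 CPM in cycling cells and 6.87, 7.81, 9.31 and 7.64 CPM in lower-Apoa4 enterocytes. Alppl2, an alkaline phosphatase, was at 13.1, 10.4, 13.8 and 12.99 CPM in immature enterocytes, against 5.57, 6.86, 4.39 and 8.39 CPM in cycling cells and 2.17, 2.14, 3.70 and 4.65 CPM in lower-Apoa4 enterocytes. These genes were low, and cycling cells came closest to immature enterocytes in each of the 3.

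Gasdermin and inflammasome genes, which sense bacterial products, cut pro-interleukins and open membrane pores, did not move together. Of 13 measured, 6 were higher in immature enterocytes than in crypt cells, 3 of 13 higher and 1 lower than in lower-Apoa4 enterocytes. Over all measured genes these shares were 9.17%, 5.02% and 2.27%. Gsdmc4 and Pycard are on this list and are label markers, named with earlier results of these data known. Both were among those higher than in lower-Apoa4 enterocytes, so that count is in part set by the choice of markers. Casp1, the protease of the inflammasome, was at 235, 249, 219 and 245 CPM in immature enterocytes, against 107, 108, 93.2 and 92.5 CPM in crypt cells and 219.8, 212, 236 and 237 CPM in lower-Apoa4 enterocytes. Nlrp6, a sensor, was at 257, 264, 241 and 276 CPM in immature enterocytes, against 219.8, 219.7, 198 and 264 CPM in lower-Apoa4 enterocytes. Il18, the cytokine that this protease matures, was at 264, 233, 115 and 134 CPM in immature enterocytes, against 7.30, 18.1, 10.4 and 7.71 CPM in crypt cells and 417, 347, 254 and 237 CPM in lower-Apoa4 enterocytes. Casp1 and Nlrp6 were thus near the lower-Apoa4 level, and Il18 was below it in every library. Gsdmd, the gasdermin cut by the inflammasome, ran the other way from Gsdmc4, at 91.4, 82.8, 123 and 109.7 CPM in immature enterocytes, against 259, 294, 253 and 265 CPM in lower-Apoa4 and 457, 477, 426 and 417 CPM in higher-Apoa4 enterocytes. Genes of the Gsdmc cluster resemble each other in sequence, and their counts are uncertain where reads could be split.

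Within the class, cells were ordered by their Fabp1 share, after the Fabp6-rich, shallow and tuft-gene barcodes were left out. The bins of 0.5 to 1%, 1 to 2%, 2 to 4% and at least 4% of UMIs held 436, 634, 538 and 33 barcodes, and the last had 5 to 11 per library and is thin. Fabp1 chose the members, so the bins are a description. The cell cycle list summed to medians over libraries of 0.222%, 0.116%, 0.0703% and 0.0510% of UMIs from the lowest to the highest bin, and ribosome synthesis to 0.131%, 0.104%, 0.0833% and 0.0776%. Hmgb2, a chromatin protein of dividing cells, was at medians of 371, 173, 82.7 and 55.4 CPM, and Ptma, or prothymosin alpha, at 2033, 1298, 906 and 673 CPM. Both medians were lower at each step. The ribosomal proteins barely moved over the bins, at 17.1%, 16.96%, 16.3% and 16.3% of UMIs.

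Several enterocyte genes were higher where Fabp1 was higher. Rbp2, capped by the rule, had medians of 3154, 4926, 6750.2 and 7614 CPM over the 4 bins. Gsta1 was at 191, 370.1, 661 and 789.5 CPM and Adh1, an alcohol dehydrogenase, at 253, 371, 499 and 599 CPM. Mttp was at 531, 656, 802 and 867 CPM and Il18 at 112, 178, 239 and 254 CPM. In each library all 5 of these genes were higher in the bin of 2 to 4% than in that of 0.5 to 1%. The brush border lists did not follow, with medians of 0.286%, 0.259%, 0.265% and 0.255% for peptidases and 0.322%, 0.345%, 0.361% and 0.345% for sugar genes. Among the label markers Rbp7 had lower medians at each step, at 139, 124, 83.5 and 66.1 CPM, as had Dmbt1, at 1189, 1007, 875 and 806 CPM, while Pycard stayed level, at 1816, 1833, 1789 and 1702 CPM.

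Cd74 and Klf4 were concentrated at the low end of the Fabp1 range. Cd74, the chaperone of class II molecules, had 319, 473, 908 and 53.8 CPM in libraries 1 to 4 in the lowest bin and 26.4, 64.2, 26.5 and 2.46 CPM in the bin of 2 to 4%. Klf4 had 49.5, 26.3, 105 and 46.8 CPM in the lowest bin and 15.4, 12.6, 20.5 and 15.8 CPM in the bin of 2 to 4%. Apoa1 of library 3 was at 8513 CPM in the lowest bin and 2305 CPM in the bin of 2 to 4%. The lowest bin therefore held division genes and some mature or ileal genes side by side, even without the barcodes richest in Fabp6.

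**Figure D4:**
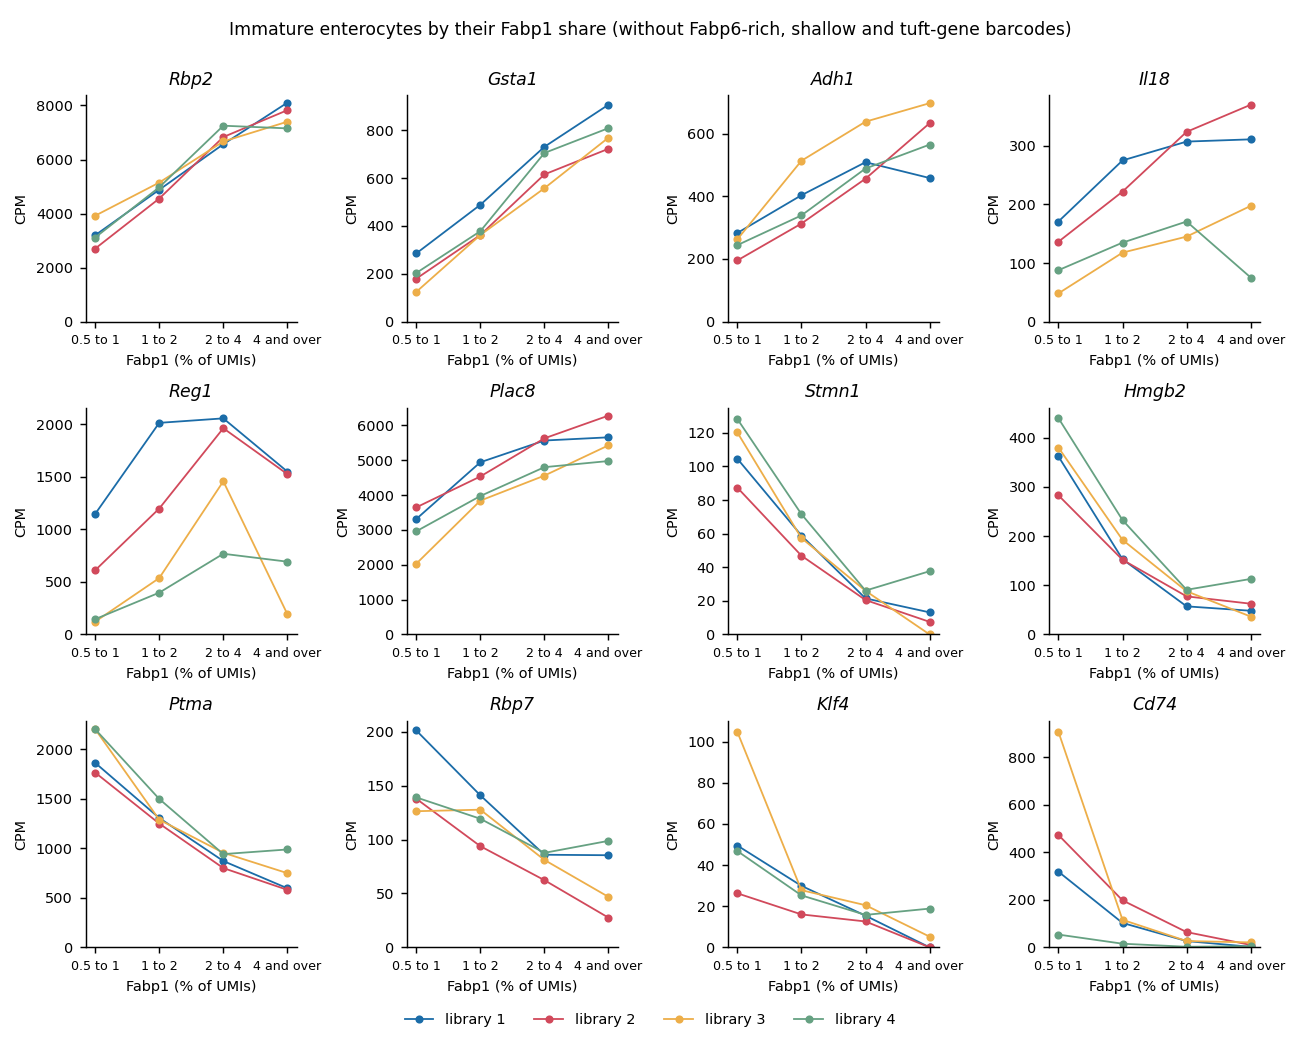
CPM of 12 genes in immature enterocytes binned by their Fabp1 share (horizontal axis, percent of UMIs), a line for each library, without the Fabp6-rich, shallow and tuft-gene barcodes. Rbp2, Gsta1, Adh1 and Plac8 are higher at 2 to 4% than at 0.5 to 1% and Stmn1, Hmgb2, Ptma, Klf4 and Cd74 lower in every library, and the bin at the right holds only 33 barcodes.

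Between libraries, immature enterocytes were close. Of 6950 genes at 10 CPM or more, 14 (0.201%) were past 2-fold from the median of the 4 libraries for library 1. Library 2 had 26 such genes (0.374%), library 3 had 25 (0.36%) and library 4 had 19 (0.273%). Without the Fabp6-rich, shallow and tuft-gene barcodes the counts were 9, 27, 23 and 19. The genes with the widest range fell into antibody genes, class II genes, Reg3 genes, Fabp6, Ada and Tm4sf4. Fabp6 was at 598, 419.6, 2174 and 1388 CPM in libraries 1 to 4, and at 18.2, 25.8, 25.99 and 22.4 CPM without the Fabp6-rich, shallow and tuft-gene barcodes. Without them its log2 ratio to crypt cells had a median of -0.90 over the 4 libraries, and with them it was 3.57. The distal enterocyte list likewise summed to 0.272%, 0.257%, 0.515% and 0.449% of UMIs with and 0.194%, 0.188%, 0.204% and 0.245% without these barcodes, so the higher sums of libraries 3 and 4 were smaller without them.

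Reg3b, a lectin secreted against bacteria, was at 9027, 14214, 1524 and 2599 CPM in immature enterocytes, and its relative Reg3g at 3904, 5507, 761 and 1143 CPM. Libraries 1 and 2 were high and libraries 3 and 4 low, with no overlap. The same order held in lower-Apoa4 enterocytes, where Reg3b was at 13461, 27971, 1546 and 2509.6 CPM and Reg3g at 3635, 7028, 453 and 804 CPM. Immature enterocytes had more Reg3g than lower-Apoa4 enterocytes in libraries 1, 3 and 4 but not in library 2 (log2 ratios 0.10, -0.35, 0.75 and 0.51). Reg1, a related lectin, was at 1771, 1266, 736 and 421 CPM in immature enterocytes, against 40.6, 98.7, 33.2 and 32.03 CPM in crypt cells and 3469, 2786, 2473 and 2069 CPM in lower-Apoa4 enterocytes. Reg3a ran against the others, at 298, 311, 359.7 and 488 CPM in immature enterocytes, highest in library 4. Reads of Reg genes, which resemble each other, could be split among them. Lypd8, which keeps flagellated bacteria off the surface, was at 4552, 4811, 2937 and 3433 CPM in immature enterocytes, against 4208, 3749, 2592 and 2583 CPM in lower-Apoa4 and 1261, 1027, 418 and 513 CPM in higher-Apoa4 enterocytes. Over the list of secreted and surface defence the medians against the median of the libraries were 0.24, 0.24, -0.11 and -0.39.

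Class II genes, whose products present peptides to helper T cells, were lowest in library 4. The list medians of immature enterocytes were -0.36, 0.29, 1.02 and -2.41 on the log2 scale against the median of the 4 libraries, with 6 of 8 measured genes past 2-fold lower in library 4 and 4 of 8 past 2-fold higher in library 3. Of all 6950 measured genes, 17 were past 2-fold lower in library 4 and 21 past 2-fold higher in library 3. Cd74 was at 184, 331, 564 and 34.05 CPM in immature enterocytes. Those cells held 43.1, 71.03, 156 and 3.15 CPM of H2-Aa and 56.3, 84.6, 180.4 and 8.53 CPM of H2-Ab1. Library 3 held the most in immature enterocytes, but library 2 did in crypt cells, where Cd74 was at 503, 727, 286 and 43.3 CPM, and in higher-Apoa4 enterocytes, at 148, 453, 131 and 13.1 CPM. Without the Fabp6-rich, shallow and tuft-gene barcodes the level of Cd74 was 111, 214, 233 and 21.4 CPM, that of H2-Aa 20.3, 35.6, 57.9 and 2.02 CPM and that of H2-Ab1 33.6, 54.5, 67.5 and 4.55 CPM, in immature enterocytes. Library 3 then stood next to library 2, and library 4 stayed lowest. Fabp6-rich barcodes held 2071 CPM of Cd74, and the 1327 barcodes without any of the limits 187 CPM.

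Interferon-induced genes showed a library difference that was small in immature enterocytes and larger on the villus. The type I interferon list summed to 0.0994%, 0.0587%, 0.0779% and 0.0744% of UMIs in immature enterocytes, against 0.230%, 0.116%, 0.115% and 0.112% in lower-Apoa4 and 0.444%, 0.164%, 0.180% and 0.158% in higher-Apoa4 enterocytes and 0.0386%, 0.0253%, 0.0294% and 0.0237% in crypt cells. Library 1 was highest in each of these classes. Isg15, a ubiquitin-like protein, was at 28.4, 13.01, 15.5 and 5.38 CPM in immature enterocytes, against 122, 25.7, 14.7 and 9.07 CPM in lower-Apoa4 and 432, 59.3, 65.6 and 24.9 CPM in higher-Apoa4 enterocytes. Ifit1, which binds viral RNA, was at 8.93, 5.18, 10.9 and 4.30 CPM in immature enterocytes, where library 3 was highest, and at 8.31, 4.12, 8.66 and 2.10 CPM without the Fabp6-rich, shallow and tuft-gene barcodes, against 209.997, 23.3, 54.1 and 27.6 CPM in higher-Apoa4 enterocytes. In library 1 the list median of immature over higher-Apoa4 enterocytes was -2.94, and in libraries 2 to 4 it was -1.41, -1.49 and -1.36. Whether this gap differs between libraries was not tested. All 7 genes of the list measured in immature enterocytes exceeded the library median in library 1, and 1 was past 2-fold. Of all 6950 measured genes, 3223 exceeded that median in library 1 and 4 were past 2-fold higher.

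**Figure D5:**
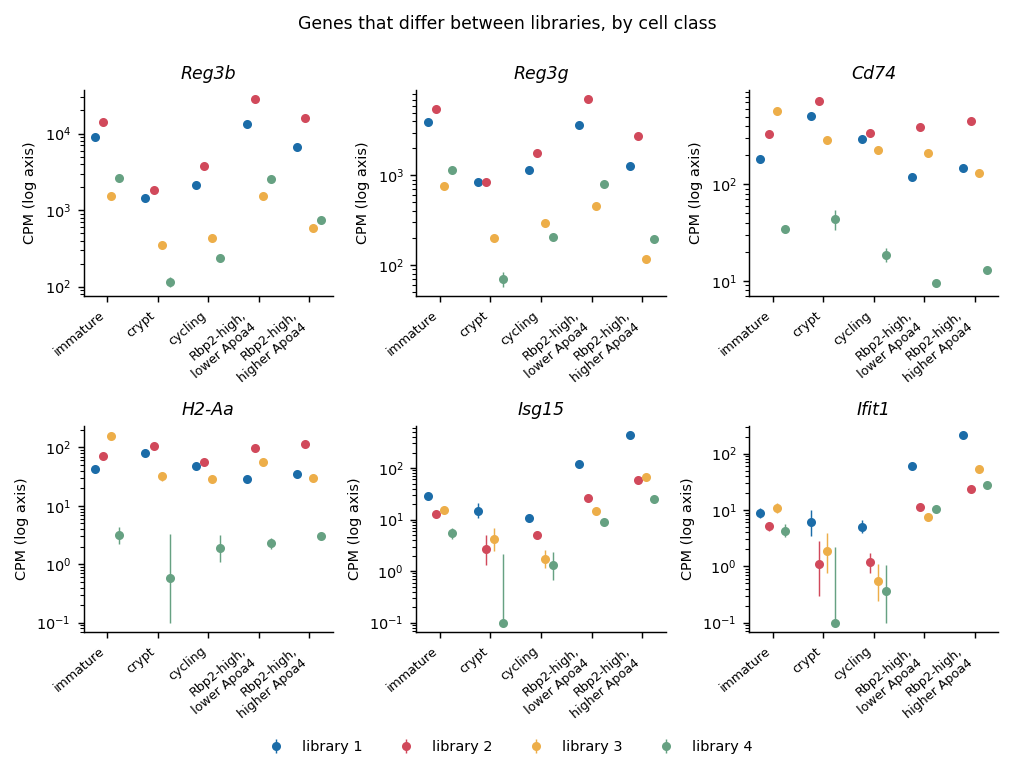
CPM (log axis) of 6 genes in 5 cell classes, a point for each library with its exact Poisson 95% interval, values of 0 drawn at 0.1. Reg3b and Reg3g are higher in libraries 1 and 2 than in libraries 3 and 4 in all 5 classes, Cd74 and H2-Aa are lowest in library 4, and Isg15 is highest in library 1 in every class.

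Transcripts of other cell types moved with some of these differences. The list of B and plasma cell markers summed to 0.0210%, 0.00113%, 0.0784% and 0.00105% of UMIs in immature enterocytes, with 1 of 10 markers at 0 in all 4 libraries. Igkc was at 121, 5.65, 516 and 4.996 CPM in immature enterocytes and 87.2, 5.27, 527 and 4.63 CPM without the Fabp6-rich, shallow and tuft-gene barcodes, while it was 1503, 4.48, 224 and 4.16 CPM in lower-Apoa4 enterocytes, which should lack it. T and NK cell markers summed to 0.000893%, 4.35e-05%, 0.00414% and 3.84e-05% of UMIs, and to 0.000842%, 1.83e-05%, 0.00373% and 4.21e-05% without those barcodes, with 4 of 15 at 0, and the rule itself had removed barcodes with Ptprc or Cd3 genes. Goblet cell markers summed to 0.0343%, 0.0486%, 0.133% and 0.0488% of UMIs in immature enterocytes, against 0.0308%, 0.0379%, 0.0502% and 0.0370% in lower-Apoa4 enterocytes, and 6 of 7 measured ones were past 2-fold higher in library 3. Of all 6950 measured genes, 21 were past 2-fold higher in that library. Antibody, T cell and goblet transcripts were thus all highest in library 3, the library with the most immune barcodes and with the most Cd74 and H2-Aa in immature enterocytes. Their part in the class II values of that library was not tested. Tuft markers summed to 0.00699%, 0.00213%, 0.00393% and 0.00673%, and to 0.00203%, 0.00172%, 0.00249% and 0.00257% without the Fabp6-rich, shallow and tuft-gene barcodes, so the higher sums of libraries 1 and 4 were those of the libraries with tuft-gene barcodes, 3 in each. Myeloid markers summed to 0.000691%, 0.000270%, 0.000819% and 0.000323%, and to 0.000421%, 0.000266%, 0.000483% and 0.000328% without those barcodes. Stromal and endothelial markers summed to 3.19e-05%, 2.17e-05%, 6.74e-05% and 0.000161%, and to 3.32e-05%, 1.83e-05%, 3.29e-05% and 1.68e-05% without them. Enteroendocrine markers summed to 0.00237%, 0.00208%, 0.00473% and 0.00411% and Paneth markers to 0.0114%, 0.0361%, 0.0288% and 0.0139%. Of these 5 lists, 0 of 12, 3 of 12, 5 of 10, 0 of 15 and 0 of 10 markers were at 0 in all 4 libraries, in the order given.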

How the data were processed

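UMI counts per gene and barcode, as deposited, are whole numbers without normalization, per the file headers and the values. Per the labels' protocols they come from a 3′ v2 droplet assay of DAPI-negative cells. Cell Ranger 6.1.1 and mm10 are named in the submitters' processing notes; no source used here gives the annotation or the barcode filter. The members and gene lists were chosen with earlier results of these data known. Barcodes were classed by the rule in the report, UMIs were summed per class and library and divided by the class total (CPM), and log2 ratios took a prior of 1 CPM, so that ratios of low genes are understated. Shares have exact Clopper-Pearson and levels exact Poisson 95% intervals, for counting error only. A planned edgeR test of the diet was not run, since libraries could not be tied to samples. Passing barcodes had medians of 27622, 27135, 22601 and 26017 UMIs in libraries 1 to 4, of 183971338, 209357877, 178052389 and 173564399 UMIs in all. Doublets were kept; Scrublet (scanpy 1.11.5) marked 4, 1, 157 and 1 barcodes by its automatic threshold, which had not worked in 3 libraries, and an alternative left out the 6% with the highest score.

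Genes named over all genes were the 10 highest and 10 lowest by the smallest of their 4 log2 ratios to a class and the 10 with the widest range between libraries, from 50 CPM. Per list, the 3 members with the highest CPM and the 2 with the largest ratio could be named. Other named genes were chosen after their values were seen, and a result on 1 listed gene is not reported here. Of 556 list genes 555 were found by symbol. On simulated counts for the comparison with crypt cells (8242 genes) the rule recovered, of 50 genes per log2 change, 45 for -2, 38 for -1.5, 46 for 1.5 and 49 for 2, and counted 0 of 7626 unchanged ones. Promoters came from the RefSeq table (GRCm38.p6), where Fabp1, Rbp2, Rbp7 and Pycard of the 6 rule and marker genes looked up had an entry. Python 3.11.15, numpy 2.4.6, scipy 1.17.1 and matplotlib 3.10.9 were used.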

Additional observations from a re-analysis of the deposited data

How the results depend on the processing

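Depth, selection limits and low counts bound these values. No paired analysis was possible because the barcode numbers could not be tied to the labelled samples, and no test was made. Scrublet scores above the highest 6%, mitochondrial genes out of the total, and limits of 2000 UMIs, 5000 UMIs or 15% mitochondrial UMIs kept every count of genes within 1.5 times. For single genes against a class, 3098 values moved less than the range over libraries, 170 moved more, and 8 that were past 2-fold changed sign.

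The share of passing barcodes moved beyond its interval to 11.6% in library 2 with at least 2000 UMIs, to 11.5% in library 2 and 6.21% in library 3 with at least 5000 UMIs, and to 8.67% in library 4 under the limit of 15% mitochondrial UMIs. It was 2.19%, 6.60%, 2.25% and 3.69% in libraries 1 to 4 with Rbp2 below 0.5%, and 3.47%, 8.26%, 3.63% and 4.96% with Fabp1 at least 1%. Without Fabp6-rich, shallow and tuft-gene barcodes, an alternative chosen after seeing the data, it was 4.21%, 10.01%, 4.07% and 6.65%.

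With Rbp2 below 0.5%, 324 genes were higher than in cycling cells and 274 lower than in lower-Apoa4 enterocytes. A prior of 10 CPM left 491 genes higher and 518 lower than in crypt cells, 280 and 555 against cycling cells, 156 and 88 against lower-Apoa4 enterocytes, and 705 higher than in higher-Apoa4 enterocytes. Equal weight of barcodes gave 103 genes lower than in lower-Apoa4 enterocytes, and no expression minimum gave 570 higher. Over the fits that leave out each library in turn, genes higher and lower numbered 791 to 799 and 1080 to 1138 against crypt cells, 497 to 551 and 1042 to 1102 against cycling cells, 362 to 479 and 161 to 211 against lower-Apoa4 enterocytes, and 1299 to 1377 and 513 to 568 against higher-Apoa4 enterocytes.

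Genes past 2-fold in a library were most sensitive. In libraries 1 to 4 they numbered 38, 53, 50 and 44 with equal weight of barcodes, 43, 63, 61 and 44 with no expression minimum, and 148, 56, 132 and 74 with barcodes thinned to 2000 UMIs. A prior of 10 CPM gave 4, 12 and 10 in libraries 1, 2 and 4. Library 1 had 9 with Fabp1 at least 1%, 9 without Fabp6-rich, shallow and tuft-gene barcodes, and 7 with equal weight of the Fabp1 bins. Leaving out another library gave 8 to 26 in library 1 (26 without library 2, 8 without library 4), 13 to 33 in library 2 (13 without library 3, 14 without library 4), 21 to 48 in library 3 (48 without library 4) and 15 to 35 in library 4 (35 without library 3). The cause was not tested.

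Signs turned for Cd74, Plb1 and Fabp6. The log2 ratio of Cd74 to lower-Apoa4 enterocytes was -0.25 with Rbp2 below 0.5% and -0.13 with Fabp1 at least 1%. Plb1, a brush border phospholipase, was at -0.28 with Rbp2 below 0.5% and at -0.13 without Fabp6-rich, shallow and tuft-gene barcodes. Without those barcodes Fabp6 was at -0.90 against crypt cells, -1.34 against cycling cells, -3.07 against lower-Apoa4 and -1.23 against higher-Apoa4 enterocytes.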
